A study of Mus musculus with 4 samples.

Results

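The transcripts described here belong to 10 genes of bile acid synthesis and transport: Cyp7a1, Cyp8b1, Cyp27a1, Cyp7b1, Slc27a5, Baat, Slc10a1, Abcb11, Nr1h4 and Nr0b2. They were chosen by name and found by their symbol in a table of 24138 genes, where each of the 10 had a single row. RNA was sequenced from liver in 4 male mice of the C57BL/6J strain, 18 weeks old, which had all been given the FAT-MASH diet together with RvD1. RvD1 is resolvin D1, a lipid mediator made from docosahexaenoic acid, and MASH is metabolic dysfunction-associated steatohepatitis. The 4 livers form 1 group, with no diet-only, vehicle or untreated liver analysed here, so the values show levels and the spread between animals and cannot show an effect of RvD1 or of the diet. The labels give neither the dose of RvD1 nor the time of day at which the livers were taken.

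Hepatocytes turn cholesterol into bile acids by a classical route, which Cyp7a1 opens in the endoplasmic reticulum, and by an alternative route, which Cyp27a1 opens in mitochondria and Cyp7b1 continues. The new acids are linked to taurine or glycine, pumped into bile, reclaimed in the ileum and taken up again from portal blood. Bile acids bind the nuclear receptor FXR, encoded by Nr1h4, and FXR induces Nr0b2, which encodes the corepressor SHP and takes part in the repression of Cyp7a1 and Cyp8b1.

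The regulatory sequence of 6 of the 10 genes could be matched in RefSeq (GRCm38.p6). Those of Nr0b2, Abcb11 and Cyp8b1 are shown, because over all 4 livers as deposited Nr0b2 had the widest and Abcb11 the narrowest spread among the 10, and Cyp8b1 encodes the enzyme that sets the share of cholic acid. Each run is the 250 bases before the transcription start, written 5′ to 3′ on the strand of the gene. Nr0b2 lies at chr4:133553126-133553375 (plus strand), Abcb11 at chr2:69342617-69342866 (minus strand) and Cyp8b1 at chr9:121916306-121916555 (minus strand). Capitals mark matches, on either strand, to AGGTCA, a hexamer bound by many nuclear receptors, or to CAAGGNC, the core of the site of the receptor Nr5a2.
Nr0b2: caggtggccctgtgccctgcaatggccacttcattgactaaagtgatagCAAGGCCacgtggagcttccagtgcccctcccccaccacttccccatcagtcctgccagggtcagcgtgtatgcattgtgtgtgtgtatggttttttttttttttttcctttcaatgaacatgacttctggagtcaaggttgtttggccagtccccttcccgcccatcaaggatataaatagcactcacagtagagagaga
Abcb11: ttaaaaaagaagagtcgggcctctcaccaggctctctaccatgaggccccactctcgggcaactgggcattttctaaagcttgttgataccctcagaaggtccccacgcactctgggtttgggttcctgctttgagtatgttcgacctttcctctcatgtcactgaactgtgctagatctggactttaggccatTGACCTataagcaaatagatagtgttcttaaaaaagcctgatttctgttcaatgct
Cyp8b1: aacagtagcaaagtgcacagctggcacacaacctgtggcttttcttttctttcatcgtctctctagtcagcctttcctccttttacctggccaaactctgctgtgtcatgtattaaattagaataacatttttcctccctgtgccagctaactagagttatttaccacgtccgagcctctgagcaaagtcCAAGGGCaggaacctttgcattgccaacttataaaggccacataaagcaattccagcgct
The match in Nr0b2 began 201 bases before the start and that in Cyp8b1 60 bases before it, both to CAAGGNC, which 15.0% of 32851 RefSeq promoters of this length held. The match in Abcb11 was to AGGTCA on the opposite strand, between 56 and 51 bases before the start, and 14.02% of the promoters held that hexamer. The inverted repeat AGGTCANTGACCT, a strict form of the FXR site that contains AGGTCA on both strands, was in 2 of the 32851 promoters and in none of the 7 windows matched to the 10 genes. The remaining matched genes were Cyp27a1, Nr1h4 and Slc10a1. AGGTCA was also in the window of Nr1h4, between 214 and 209 bases before the start. That window, chr10:89506659-89506908 (minus strand), lies inside the span of the gene given below, so the start is an internal one. Slc10a1 had more than 1 window. The hexamer was in chr12:80968080-80968329 (minus strand), between 87 and 82 bases before that start, and chr12:80968706-80968955 held neither motif. Thus 3 of the 7 windows held AGGTCA and 2 held CAAGGNC. Promoters for Cyp7a1, Cyp7b1, Baat and Slc27a5 were not used here.

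The libraries were alike in size and were not copies of each other. Summed FPKM (fragments per kilobase of transcript, scaled to the number of mapped fragments) ranged from 516816 in liver 3 to 570681 in liver 4, and at most 1 non-zero value was identical between any pair of libraries. Depth was estimated from the lowest values at between 18.8 and 20.1 M (mega) fragments, so the lowest value among the 10 genes, Nr0b2 in liver 4, rested on about 295 fragments per kilobase, a counting error of about 5.82%. Of 8 hepatocyte markers 7 were expressed, meaning a mean of at least 1 FPKM, and Alb was listed at 0 in all 4 livers. Since every hepatocyte uses Alb, a 0 in this table can be a failed estimate.

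All 10 genes were expressed, at means from 30.2 to 563 FPKM, which placed them above 80.3% to 98.7% of the 10541 expressed genes. The order by mean was Slc10a1, Slc27a5, Cyp27a1, Cyp8b1, Baat, Nr1h4, Abcb11, Cyp7a1, Nr0b2 and Cyp7b1. Neighbours whose values overlapped between livers, and whose order is therefore not firm, were Slc10a1 with Slc27a5, Cyp27a1 with Cyp8b1, Nr1h4 with Abcb11, Cyp7a1 with Nr0b2, and Nr0b2 with Cyp7b1. Slc10a1 nevertheless exceeded Slc27a5 within each of the 4 livers. In whole liver, fewer cells of a type and less RNA per cell cannot be told apart.

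**Figure D1:**
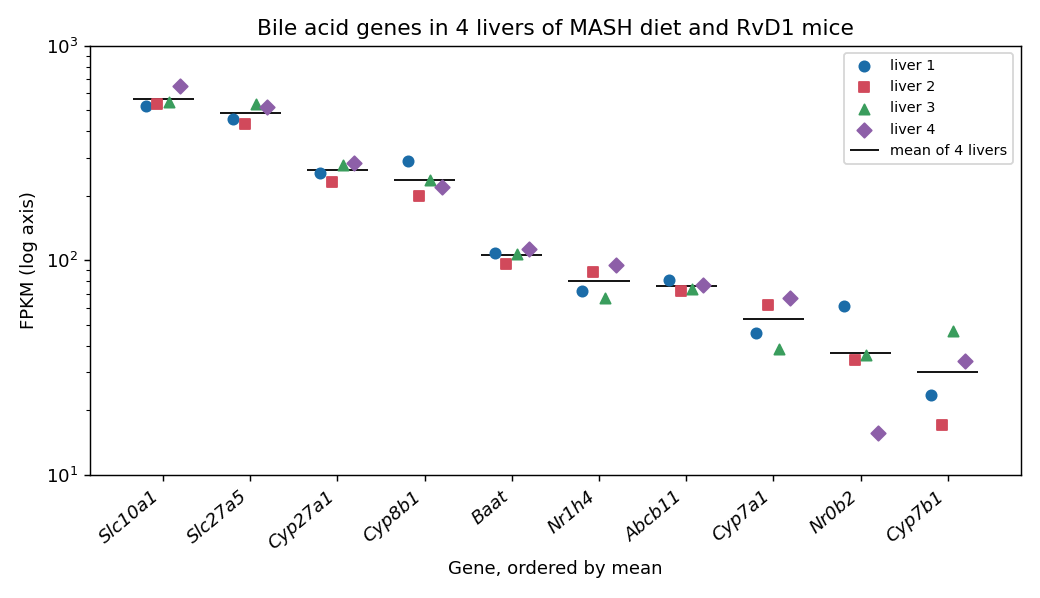
FPKM on a log axis for the 10 bile acid genes, ordered by mean; each symbol is 1 liver and each bar the mean of 4. Values run from 15.7 FPKM (Nr0b2, liver 4) to 651 FPKM (Slc10a1, liver 4), and the symbols spread most for Nr0b2 and Cyp7b1.

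The spread between livers differed among the 10 genes. It is given as the SD between livers on the log2(FPKM + 1) scale, for which the median of all expressed genes was 0.16. The SD was 0.78 for Nr0b2, 0.61 for Cyp7b1, 0.36 for Cyp7a1, 0.24 for Nr1h4 and 0.23 for Cyp8b1, above the SD of 99.5%, 99.1%, 94.8%, 78.9% and 77.1% of expressed genes. Below the median lay Slc27a5 (0.15), Slc10a1 (0.14), Cyp27a1 (0.13), Baat (0.10) and Abcb11 (0.07). Single livers weighed on several of these SDs: without liver 1 that of Cyp8b1 was 0.12 and that of Abcb11 0.045, without liver 2 that of Cyp27a1 was 0.08 and that of Baat 0.034, and without liver 4 that of Slc10a1 was 0.030 and that of Nr0b2 0.45. With each library scaled to the same summed FPKM the SD of Slc10a1 was 0.084. Both ends of the order depend on them, since without liver 1 or liver 4 Cyp7b1 (0.72 in both) was above Nr0b2 (0.65 and 0.45), without liver 4 Slc10a1 was below Abcb11 (0.084), and without liver 2 Baat was below Abcb11 (0.068). The median over the 10 genes was 0.19. The highest liver was at least 2-fold above the lowest for Nr0b2 and Cyp7b1, 2 of 10 genes, beside 6.54% of all expressed genes and 3.47% of the 2073 genes with a mean at or above that of Cyp7b1. Both counts rest on single livers: the range of Cyp7b1 was 1.99-fold without liver 2 or without liver 3, and that of Nr0b2 was 1.78-fold without liver 4.

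**Figure D2:**
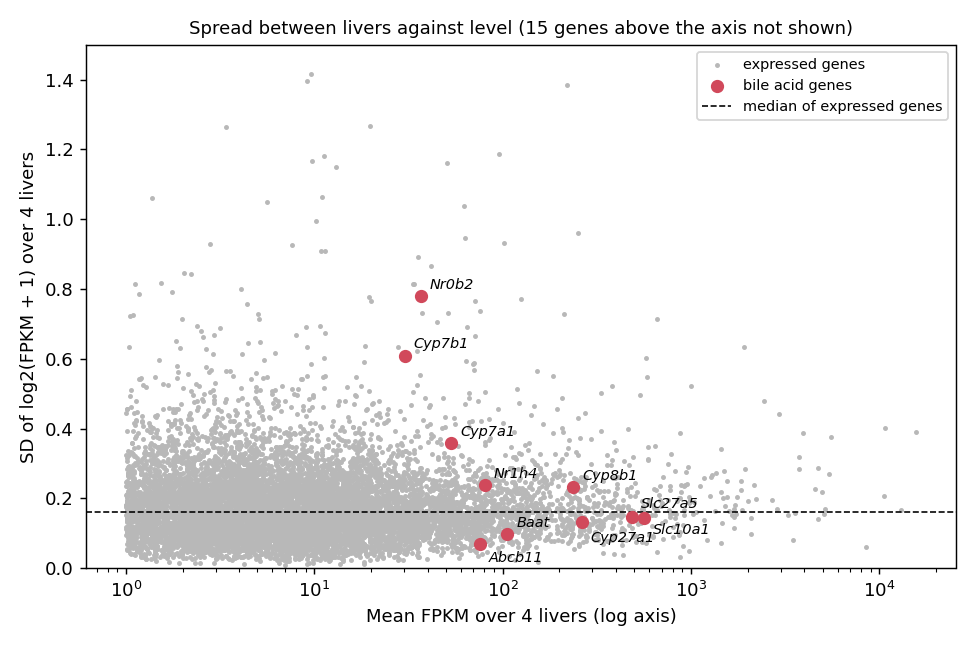
SD of log2(FPKM + 1) over 4 livers against mean FPKM on a log axis; grey points are expressed genes, red points the 10 bile acid genes and the dashed line the median of expressed genes, 0.16. Nr0b2 and Cyp7b1 lie far above the line, and Abcb11 and Baat below it.

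The enzymes that open and steer synthesis came first. Cyp7a1 (XLOC_014912; mm10, chromosome 4, 6265612 to 6275631), the rate-limiting enzyme of the classical route, was at 46.0, 62.0, 38.8 and 66.6 FPKM in livers 1 to 4. Livers 2 and 4 were high and livers 1 and 3 low, with a mean of 53.3 ± 13.1 FPKM (SD, n = 4) and a 1.72-fold range. Cyp8b1 (XLOC_022966; chromosome 9, 121914356 to 121916305), the sterol 12-alpha-hydroxylase needed for cholic acid, was at 291, 199, 236 and 219 FPKM. Here liver 1 was highest and liver 2 lowest, with a mean of 236 ± 39.4 FPKM (SD, n = 4). The order of the livers thus differed between these genes, since liver 2 was second highest for Cyp7a1 and lowest for Cyp8b1.

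The alternative route was represented by an evenly expressed and an unevenly expressed gene. Cyp27a1 (XLOC_000204; chromosome 1, 74713574 to 74737890), the mitochondrial sterol 27-hydroxylase, was at 255, 232, 278 and 284 FPKM, a mean of 262 ± 23.6 FPKM (SD, n = 4). Its 4 values lay within a 1.22-fold range. Cyp7b1 (XLOC_013660; chromosome 3, 18071950 to 18243338), the oxysterol 7-alpha-hydroxylase, was at 23.5, 17.0, 46.6 and 33.9 FPKM. Livers 3 and 4 were higher than livers 1 and 2, and the mean was 30.2 ± 12.9 FPKM (SD, n = 4) with a 2.74-fold range. Cyp7b1 transcripts are known to be more abundant in male than in female mouse liver, and all animals here were male.

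Ratios between genes of the same liver do not depend on how a library was scaled, and FPKM is per length, so levels of different genes can be set side by side. The ratio of Cyp7a1 to Cyp7b1 was 1.96, 3.64 and 1.96 in livers 1, 2 and 4, whereas in liver 3 it was 0.832, with Cyp7b1 above Cyp7a1. The mean ratio was 2.10 ± 1.16 (SD, n = 4), a 4.38-fold range. Cyp8b1 exceeded Cyp7a1 in all 4 livers, with ratios of 6.32, 3.20, 6.10 and 3.29 in livers 1 to 4. These formed a pair of high livers (1 and 3) and a pair of low livers (2 and 4), with a mean of 4.73 ± 1.71 (SD, n = 4). The ratio of Cyp27a1 to Cyp7b1 was 10.9, 13.7, 5.97 and 8.37, so that the first enzyme of the alternative route was the more abundant transcript throughout.

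**Figure D3:**
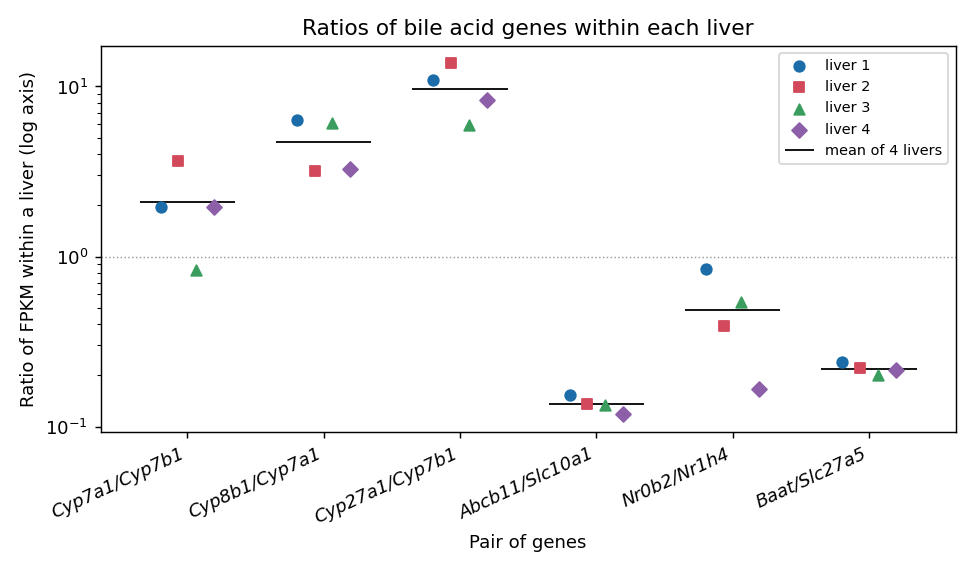
Ratio of FPKM between 2 bile acid genes within a liver, on a log axis; each symbol is 1 liver, each bar the mean of 4, and the dotted line marks a ratio of 1. Baat/Slc27a5 and Abcb11/Slc10a1 hardly vary, while Nr0b2/Nr1h4 covers a 5.12-fold range and Cyp7a1/Cyp7b1 crosses 1 in liver 3.

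Conjugation genes were abundant and even. Slc27a5 (XLOC_019440; chromosome 7, 12988346 to 12998192), the liver bile acyl-CoA synthetase that activates bile acids, was at 455, 435, 535 and 520.5 FPKM in livers 1 to 4, a mean of 486 ± 48.9 FPKM (SD, n = 4). Baat (XLOC_015054; chromosome 4, 49489418 to 49506558), the transferase that joins the activated acid to an amino acid, was at 108, 95.9, 107 and 112 FPKM, a mean of 106 ± 7.11 FPKM (SD, n = 4). Liver 2 was lowest for both genes. The ratio of Baat to Slc27a5 stayed between 0.201 and 0.238 (mean 0.219 ± 0.0155, SD, n = 4).

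Uptake and export transcripts differed in level, with the uptake carrier well above the pump. Slc10a1 (XLOC_004917; chromosome 12, 80953185 to 80968079) encodes NTCP, which takes conjugated bile acids up from the sinusoid, and was at 524, 533, 546 and 651 FPKM. Livers 1 to 3 lay close together and liver 4 above them, for a mean of 563 ± 59.0 FPKM (SD, n = 4). Abcb11 (XLOC_012348; chromosome 2, 69238282 to 69342616), which encodes the canalicular bile salt export pump BSEP, was at 80.6, 72.3, 73.3 and 76.7 FPKM, a mean of 75.7 ± 3.76 FPKM (SD, n = 4). Its 1.11-fold range was the smallest among the 10 genes as deposited, but with equal summed FPKM those of Baat (1.13-fold) and Slc10a1 (1.142-fold) were slightly below that of Abcb11 (1.143-fold). As deposited, 7.70% of expressed genes had a smaller SD. The ratio of Abcb11 to Slc10a1 was 0.135 ± 0.0147 (SD, n = 4), lowest in liver 4 at 0.118. An annotated antisense gene and a pseudogene overlap Abcb11 on the opposite strand in GENCODE vM21, and whether reads were counted by strand is not given in the sources used here.

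The receptor and its corepressor target ordered the livers differently. Nr1h4 (XLOC_002265; chromosome 10, 89454234 to 89533622) was at 72.1, 88.4, 66.4 and 94.7 FPKM, highest in liver 4 and lowest in liver 3, and averaged 80.4 ± 13.3 FPKM (SD, n = 4). Its livers stood in the order seen for Cyp7a1. Nr0b2 (XLOC_014700; chromosome 4, 133553390 to 133556536) was at 61.1, 34.3, 36.1 and 15.7 FPKM. Liver 1 was highest and liver 4 lowest, a 3.89-fold range, with livers 2 and 3 close together and a mean of 36.8 ± 18.6 FPKM (SD, n = 4). As deposited, liver 4 held the highest Cyp7a1 and Nr1h4 levels and the lowest Nr0b2 level, although liver 1, with the highest Nr0b2, did not have the lowest Cyp7a1. With equal summed FPKM the highest Cyp7a1 and Nr1h4 levels were in liver 2, while Nr0b2 was still lowest in liver 4. With median-ratio scaling Cyp7a1 and Nr1h4 stayed highest, and Nr0b2 lowest, in liver 4. With 4 livers no correlation was computed. The ratio of Nr0b2 to Nr1h4 was 0.847, 0.388, 0.544 and 0.166 in livers 1 to 4, a 5.12-fold range.

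Values of further transcripts known to be induced by FXR are given beside Nr0b2, with no test. As deposited they did not share 1 order of the livers. Abcb11, described above, was highest in liver 1 and lowest in liver 2 as deposited, within a 1.11-fold range. With equal summed FPKM it was highest in liver 1 and lowest in liver 4, as was Nr0b2. Mafg, which encodes a repressor of bile acid synthesis genes, was at 18.9, 18.4, 16.7 and 15.6 FPKM in livers 1 to 4, highest in liver 1 and lowest in liver 4 as was Nr0b2. Slc51b, a subunit of the basolateral bile acid exporter, was at 0.845, 0.712, 0.349 and 1.52 FPKM, highest in liver 4 where Nr0b2 was lowest, at levels that rest on few fragments and in a span that also covers Rasl12. Slc51a, the partner subunit, was listed at 0 in all 4 livers. The canalicular pump Abcb4 was at 101, 78.6, 74.2 and 106 FPKM, also highest in liver 4 as deposited. Its values in livers 1 and 4 are so close that the scaling can decide which is highest. Abcc2 was at 77.3, 70.0, 63.3 and 75.6 FPKM, highest in liver 1 and lowest in liver 3.

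**Figure D4:**
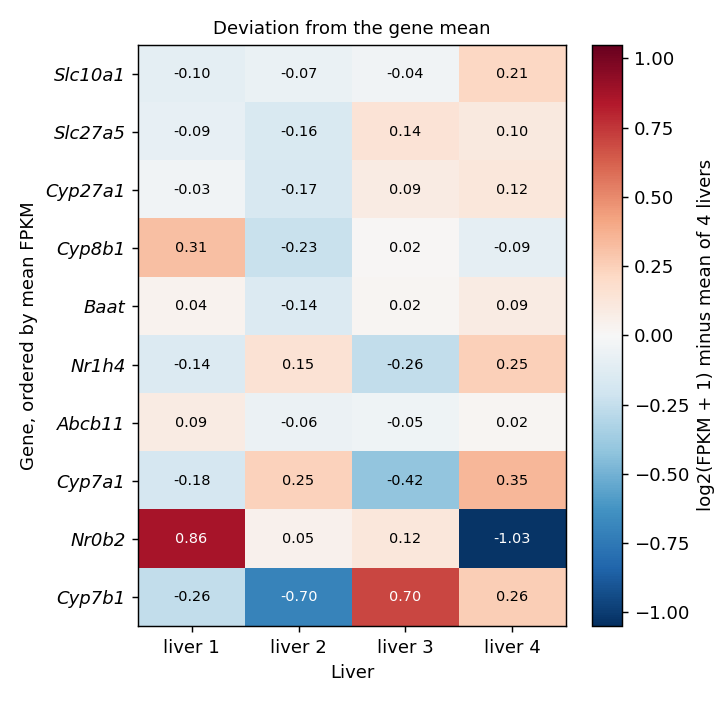
Difference of log2(FPKM + 1) from the mean of the 4 livers, for the 10 bile acid genes (ordered by mean FPKM) in each liver; red is above and blue below the mean of the gene. Nr0b2 runs from 0.86 in liver 1 to -1.03 in liver 4, and Cyp7b1 from -0.70 in liver 2 to 0.70 in liver 3.

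Across the 10 genes liver 2 was most often lowest and liver 4 most often highest. Liver 2 held the lowest value of 6 of 10 genes (Cyp8b1, Cyp27a1, Cyp7b1, Slc27a5, Baat and Abcb11), beside 29.9% of all expressed genes. It held the highest value of 0 of 10, beside 22.0%. Liver 4 held the highest value of 5 of 10 genes, beside 33.3% of all expressed genes. With each library scaled to the same summed FPKM, liver 2 was lowest for 5 of the 10 genes, beside 24.2% of all expressed genes. Liver 2 was then highest for 2, beside 28.4%, and liver 4 for 1, beside 15.6%. With median-ratio scaling liver 2 was lowest for 6, beside 27.6%, and highest for 0, beside 24.9%. Liver 4 was then highest for 4, beside 27.1%. The high place of liver 4 thus depends on which scaling is used. The median deviation of the 10 genes from their means was -0.06, -0.11, 0.02 and 0.11 on the log2 scale in livers 1 to 4, beside -0.01, -0.02, -0.01 and 0.04 for all expressed genes.

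Acute phase transcripts were highest in liver 2. Their summed level over a list of 16 genes reached 21279 FPKM there against 9500 to 12827 FPKM elsewhere, and 13 of the 16 were highest in liver 2, beside 22.0% of all expressed genes. Saa1, a serum amyloid A gene, was at 139, 2135, 45.6 and 131 FPKM in livers 1 to 4. Of 10 pericentral hepatocyte genes 7 were lowest in liver 2, beside 29.9% of all expressed genes, among them Oat at 95.1, 38.0, 80.6 and 67.7 FPKM. The summed level of that list was 4941 FPKM in liver 2 and 5384 to 8546 FPKM in the others. Most of that sum was Cyp2e1, at 5236, 4387, 4618 and 7788 FPKM in livers 1 to 4. Of 9 expressed periportal genes 3 were lowest in liver 2, as many as in liver 1 and in liver 3, beside 29.9% of all expressed genes, and their sum was 6391 FPKM there against 6747 to 7455 FPKM. Liver 2 was above the gene mean for 7 of 7 expressed macrophage markers, 5 of 5 expressed cholangiocyte markers and 1 of 7 expressed hepatocyte markers, beside 45.1% of all expressed genes. Liver 4 was above it for 6 of 7 macrophage markers, 0 of 5 cholangiocyte markers and 6 of 7 hepatocyte markers, beside 60.8%. The summed level of the macrophage list was 186, 245, 183 and 264 FPKM in livers 1 to 4, and that of the hepatocyte list 32879, 29605, 29602 and 37624 FPKM. The part of acute phase, zonation or cell type transcripts in the low bile acid gene values of liver 2 was not tested.

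No liver stood far enough from the others to pass Dixon's gap ratio at its 95% critical value for any of the 10 genes (0 of 10), beside 5.46% of expressed genes. The ratio divides the distance of the outermost liver from its neighbour by the whole range. It was largest for Slc10a1 (0.812, liver 4 high) and Baat (0.716, liver 2 low). After median-ratio scaling of the libraries Baat passed, at 0.882, while its range was 1.14-fold.

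Genes whose pattern over the 4 livers was most like that of 4 of these genes were sought among the 6528 other genes averaging 5 FPKM or more, by the root mean square (RMS) difference between their log2 deviations. Nearest to Cyp7a1 were Ttpa, which encodes the alpha-tocopherol transfer protein, Sgms1, a sphingomyelin synthase, and Rnf7, at 0.030, 0.039 and 0.042. Nearest to Cyp8b1 were Nudt22, Slc16a10 and Gnat1, at 0.027, 0.038 and 0.042. Within 0.1 of Cyp7a1 lay 59 genes, 0.904% of those compared, and within 0.1 of Cyp8b1 lay 109, or 1.67%.

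The RMS difference grows with the spread of the gene itself, so the distances of the widely spread Nr0b2 and Cyp7b1 are not comparable with those of Cyp7a1 and Cyp8b1. Nearest to Nr0b2 were the noncoding RNA Neat1 (0.14) and Tat, the tyrosine aminotransferase (0.26). Neat1 was at 94.8, 69.7, 64.9 and 30.1 FPKM in livers 1 to 4, also highest in liver 1 and lowest in liver 4, and Tat was at 780.2, 522, 505 and 335 FPKM in the same order as Neat1. Nearest to Cyp7b1 were Cyp4a12b (0.12), Selenbp2 (0.13) and the major urinary protein gene Mup14 (0.15); Cyp7b1 was added to this search after its values were seen. Selenbp2 was at 50.2, 42.2, 122 and 72.3 FPKM, lowest in liver 2 and highest in liver 3 like Cyp7b1. Cyp4a12b and Mup14 have near-identical copies, so their values are uncertain.

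Clock transcripts were set beside these values because bile acid genes are known to follow the time of day. Nr1d1, which encodes the clock repressor REV-ERB alpha, was at 52.7, 39.3, 25.4 and 23.9 FPKM in livers 1 to 4, highest in liver 1 and lowest in liver 4 as for Nr0b2. Dbp, an activator of Cyp7a1, was at 118, 103, 102 and 93.6 FPKM, and Cry1 at 2.88, 4.47, 5.85 and 6.03 FPKM. Other clock genes ordered the livers differently, with Per1 at 7.86, 6.41, 11.6 and 7.43 FPKM and Per2 at 7.54, 5.78, 8.82 and 6.41 FPKM, both highest in liver 3, Nr1d2 highest in liver 2, and Tef and Hlf highest in liver 4. Of the 10 expressed clock genes 3 were highest in liver 1 and 3 lowest in liver 4, beside 17.9% and 18.1% of all expressed genes. Of 12 clock genes 10 were expressed, and 2 of these had at least a 2-fold range (Nr1d1 and Cry1), beside 6.54% of expressed genes. The summed level of the list lay within 240.3 to 288 FPKM, of which Dbp alone averaged 104 FPKM. From liver 1 to liver 4 Nr1d1 fell while Cry1 rose, so the sum cannot stand for the time of day. The part of the clock genes in the spread of Nr0b2 was not tested.

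Beyond the 10 genes, 57 further genes of the pathway were examined, of which 56 were in the table and 47 were expressed. None of the 47 had a 2-fold range between livers, beside 6.54% of all expressed genes, and the largest range was 1.90-fold (Slco1a1). Their median SD was 0.18.

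Of 20 further synthesis genes 18 were expressed. Scp2, the peroxisomal thiolase and sterol carrier, was highest at 1875 ± 222 FPKM (SD, n = 4), followed by Slc27a2 at 889 ± 140.3 FPKM and Akr1c6 at 713 ± 128 FPKM (each SD, n = 4). Hsd3b7, which acts after both 7-alpha-hydroxylases, was at 262, 179, 239 and 239.6 FPKM, lowest in liver 2 as was Cyp8b1. Akr1d1, the 5-beta-reductase of the steroid nucleus, was at 48.3, 71.7, 71.1 and 72.8 FPKM, with liver 1 apart below the rest. The mouse muricholic acid enzyme Cyp2c70 was at 161, 201, 279 and 264 FPKM, higher in livers 3 and 4 as was Cyp7b1. Cyp39a1, a 7-alpha-hydroxylase of 24-hydroxycholesterol, had 11.8 ± 2.54 FPKM (SD, n = 4), and Ch25h, the cholesterol 25-hydroxylase, was between 0.0872 and 0.380 FPKM. Levels of Ch25h rest on few fragments.

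Of 20 further genes of transport and handling 15 were expressed. The sinusoidal carrier Slco1b2 had 274 ± 44.5 FPKM and the canalicular pumps Abcb4, for phospholipid, and Abcc2, for conjugates, had 89.9 ± 15.7 and 71.6 ± 6.36 FPKM (each SD, n = 4). Slco1a1 was at 12.01, 13.5, 17.3 and 22.8 FPKM, and Abcc3, a basolateral exporter, at 66.9, 54.3, 53.6 and 81.4 FPKM, both highest in liver 4. In all, 10 of the 15 were highest in liver 4, as were 10 of the 18 other expressed synthesis genes and 5 of the 14 other expressed regulators, beside 33.3% of all expressed genes. With equal summed FPKM these counts were 8, 5 and 1, beside 15.6%, and with median-ratio scaling 10, 9 and 4, beside 27.1%. Slc10a2, the sodium-dependent carrier of ileum and bile ducts, was at 8.64, 11.02, 7.53 and 7.69 FPKM. Of 8 cholangiocyte markers, Slc10a2 among them, 5 were expressed, with Krt19 at 4.84 ± 0.263 and Epcam at 6.84 ± 0.835 FPKM (each SD, n = 4), while Cftr, Ggt1 and Tff2 had means below 1 FPKM. The summed level of the 8 was 29.5, 34.5, 29.1 and 25.4 FPKM in livers 1 to 4. Of 7 ileal markers, Fgf15, Fabp6 and Sis were listed at 0 in all livers, Vil1 and Lct had means below 1 FPKM, and Slc10a2 and Apoa4 were expressed. Apoa4, which liver also transcribes, had a mean of 3739 FPKM.

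Of 17 further regulators 14 were expressed. Fgfr4 and Klb, which form the hepatocyte receptor for the ileal hormone FGF15, had 13.9 ± 0.778 and 7.74 ± 1.00 FPKM (each SD, n = 4), with Fgf15 itself listed at 0. Nr5a2, the activator of Cyp7a1 and Cyp8b1 whose core motif is marked above, had 9.56 ± 0.748 FPKM (SD, n = 4) and a 1.20-fold range. Hnf4a, also an activator of both genes, was at 93.9, 104, 156 and 118 FPKM, highest in liver 3 where Cyp7a1 was lowest. Rxra, the partner of FXR, had 101 ± 10.98 FPKM (SD, n = 4). The membrane bile acid receptor Gpbar1 was listed at 0 in 3 livers and at 0.167 FPKM in liver 3, and Vdr did not exceed 0.0395 FPKM. The other 9 expressed regulators had means from 2.11 FPKM (Ppargc1a) to 52.1 FPKM (Nr1h3, which encodes LXR alpha).

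**Figure D5:**
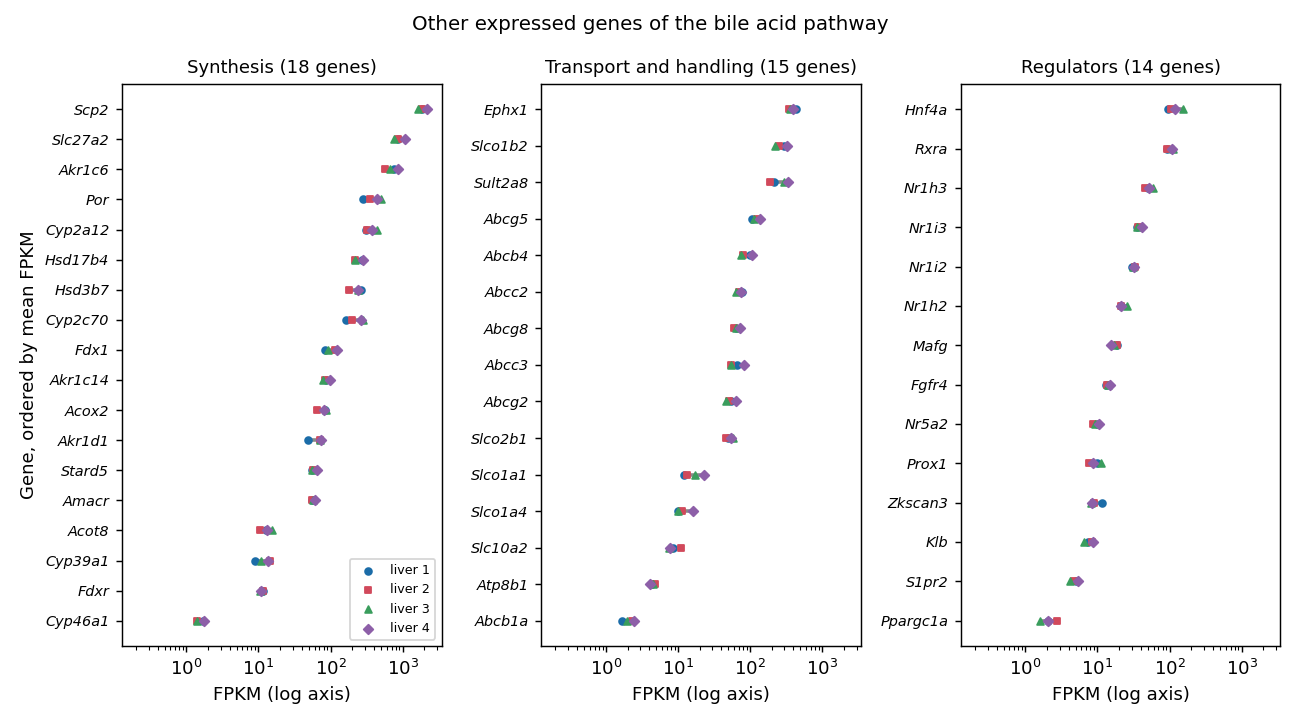
FPKM on a log axis for the 47 other expressed genes of the pathway in 3 panels, ordered by mean; each symbol is 1 liver and each line spans the 4 livers. Synthesis genes reach the highest levels (Scp2, 1875 FPKM on average), regulators lie near or below 100 FPKM apart from Hnf4a, and each line spans less than a 2-fold range.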

How the data were processed

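Poly(A)-enriched RNA of 4 livers was sequenced. The deposited values were taken as FPKM computed by the authors, 1 column per liver matched through the sample descriptions; the unit is not stated and was read from the values and from the naming of Cufflinks 2.2.1, with STAR 2.7.6a, Trim Galore 0.6.3 and mm10, in the submitters' processing notes. Annotation, parameters and strand setting are not given in the sources used here. FPKM holds no counts, so no count test was run. The depth is an approximation from the lowest values of genes that have 1 GENCODE vM21 transcript, longer than 800 bases, taken less 200 bases; with 100 or 300 bases it came to 18.2 to 21.1 M fragments. Cufflinks starts were increased by 1, after which 6 of 10 equalled RefSeq starts. A pseudocount of 1 was used on the log2 scale, which understates differences of low genes, and a mean of 1 FPKM for expressed genes. Python 3.11.15 and pandas 2.3.3 were used, and the measures were tested on simulated data. The genes, lists and measures were chosen with earlier results of these data known; the clock list was added after values were seen. Named genes were the 10 genes, the pathway lists, marker genes set beside them, and the 3 nearest patterns of Cyp7a1, Cyp8b1 and Nr0b2; 1 gene first listed with the regulators and 1 nearest gene were left out and are not reported here. Nothing in the labels says whether animals shared a cage or batch. Stard1 was not matched and was not analysed here. Alternatives were other pseudocounts, scalings, filters and each liver left out.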

Additional observations from a re-analysis of the deposited data

Results flagged for a closer look

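Among the 47 other expressed pathway genes, 2 had a liver past Dixon's gap ratio, 4.26% beside 5.46% of all expressed genes; chance marks about 1 gene in 20. Akr1d1 was at 48.3 FPKM in liver 1, below the 71.1 to 72.8 FPKM of the other livers. Nr1h2, which encodes the oxysterol receptor LXR beta, was at 25.7 FPKM in liver 3, above the 20.9 to 21.2 FPKM of the other livers.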

How the results depend on the processing

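No paired analysis was possible because the 4 livers form a single group. Scaling each library to the same summed FPKM lowered the median SD of the 10 genes from 0.19 to 0.17 and their median deviation in liver 4 from 0.11 to 0.0124. Median-ratio scaling raised the number of genes past the gap ratio from 0 to 1. Leaving out 1 liver at a time gave a median SD from 0.16 to 0.19 and 1 or 2 genes with a 2-fold range. The other 42 values under planned settings were summary measures, ratios and counts. Each stayed within a tolerance, for counts a change of no more than 1.5 times. For ratios and gene means the tolerance was the SD between livers, and for median deviations the SD of the 4 medians. For SDs, and for the share of genes with an SD below the median of the 10, it was the SD of the leave-one-out values. It was wide for that share, at 9.41 percentage points. A move from 62.2% to 70.0% without a filter on low values lay within it. The order of the 10 genes by mean was kept for 8 or more genes in every setting tried. All 6 within-liver ratios stayed within 1 SD when averaged by the geometric mean. With a liver left out they did so too, but leaving out 1 of 4 values cannot move a mean by 1 SD. That outcome was therefore fixed in advance and is no measure of stability. For single genes, 59 values under planned settings stayed within their tolerance and 1 did not. With a liver left out 71 did and 9 did not, and all 9 were SDs. The tolerance of the SDs came from these same leave-one-out values, and the gene means could not move past theirs. The split into 71 and 9 is therefore no measure of stability. With equal summed FPKM the SD of Nr1h4 went from 0.24 to 0.20, outside its tolerance. That of Slc10a1 went from 0.14 to 0.084. It counted as within tolerance because the SD of the leave-one-out values of Slc10a1 was 0.068. Without a filter on low values, 11.3% of genes passed the gap ratio in place of 5.46%. Depth limits the genes below about 1 FPKM, such as Slc51b, Ch25h and Gpbar1.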
